A study of Mus musculus with 61 samples.

Results

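The urokinase and plasmin system was examined through 6 genes in cultured mouse hepatocytes that could or could not signal through gp130. Members were the array probes annotated to Plg, Plau, Plat, Plaur, Serpinf2 and Serpine2, out of 45281 probes on the array. The annotation paired 12 probes with 5 of these 6 genes and none with Serpine2, which encodes protease nexin-1, so Serpine2 is named only. Of the 12 probes, 9 were detected on at least 5 arrays, and these 9 stand among 19543 such probes of 12157 genes. The 3 others were 2 probes of Plat, detected on 2 and 0 arrays, and 1 probe of Plg, detected on 0 arrays.

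Hepatocytes came from C57BL/6 mice of 2 genotypes. In gp130- mice a Cre recombinase under the albumin promoter, which is active in hepatocytes, deleted the floxed gp130 gene (Il6st). Littermates with floxed gp130 alleles and no Cre (gp130flox), called wild type in the sample labels, were the controls. Cells of both genotypes were cultured with serum, starved overnight and given 200 ng/mL IL-6 without serum. RNA was taken at 0, 1, 3, 6 and 12 h, which gave 7, 6, 6, 7 and 7 arrays of gp130flox and 6, 6, 5, 5 and 6 of gp130- cells. The age of the mice was not given in the sources used here. All arrays after 0 h had received IL-6, and its effect and that of time in culture cannot be told apart.

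Plasminogen (Plg), made in the liver, circulates as the inactive precursor of plasmin, the protease that cuts fibrin and other matrix proteins. Urokinase (Plau) and tissue plasminogen activator (Plat) convert it to plasmin, the urokinase receptor (Plaur) holds urokinase at the cell surface, and alpha-2-antiplasmin (Serpinf2), a serpin secreted by hepatocytes, inactivates plasmin. IL-6 acts on hepatocytes through gp130, Janus kinases and the transcription factor STAT3, and induces acute phase plasma proteins such as fibrinogen.

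The promoters of 2 members that the array detected were held in the table of RefSeq promoters (build GRCm38.p6), and both are shown. Serpinf2 differed between the genotypes in part of the arrays, and Plaur did not pass the test there. The 250 bases before the start of each gene are given 5′ to 3′ on the strand of the gene, Serpinf2 at chr11:75439502-75439751 on the minus strand and Plaur at chr7:24462233-24462482 on the plus strand. Capitals mark a match to TTCNNNGAA, the palindrome that STAT factors bind, or TGANTCA, the AP-1 motif, searched on both strands; matches of the 2 motifs did not overlap.
Serpinf2: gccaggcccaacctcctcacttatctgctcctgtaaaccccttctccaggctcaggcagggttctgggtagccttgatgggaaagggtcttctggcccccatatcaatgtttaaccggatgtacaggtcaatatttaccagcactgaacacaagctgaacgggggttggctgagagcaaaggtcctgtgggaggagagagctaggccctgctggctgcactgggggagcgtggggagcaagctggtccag
Plaur: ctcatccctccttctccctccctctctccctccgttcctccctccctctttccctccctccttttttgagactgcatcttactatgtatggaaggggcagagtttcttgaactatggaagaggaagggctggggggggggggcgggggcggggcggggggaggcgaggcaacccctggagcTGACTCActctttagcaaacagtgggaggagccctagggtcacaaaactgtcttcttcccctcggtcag
Plaur held 1 match to TGANTCA, which spans 69 to 63 bases before the start, and Serpinf2 held none of either motif in this window. Among 32841 promoters of the same length, 7.02% held TTCNNNGAA and 6.75% held TGANTCA.

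Column names of the signal table carry a number for each array. What it means is not stated, and the arrays that share a number and a genotype are termed a preparation below. Preparations with numbers 1 to 4 (25 arrays of 5 preparations) and 6 to 11 (36 arrays of 8 preparations) stood apart in both genotypes. For Plg, described below, this held in both genotypes at 0 h. The marker values that follow are over all times and both genotypes. Cyp2e1, a cytochrome P450 of mature hepatocytes, averaged 4.73 in the former and 13.25 in the latter on the log2 signal scale, and Anln, a gene of dividing cells, averaged 9.9 and 4.49. Not all hepatocyte markers parted in this way: Hnf4a, a hepatocyte transcription factor, averaged 8.83 and 7.96, and transferrin (Trf) 14.38 and 14.36. The mean level of 9 hepatocyte markers was 7.36 to 8.49 on the arrays of numbers 1 to 4 and 10.04 to 11.24 on those of numbers 6 to 11, while that of 4 markers of dividing cells was 7.77 to 9.68 and 4.75 to 5.43. Cyp2e1 and Anln were picked because they part the sets. Cyp2e1 counts in the hepatocyte list and Anln in that of dividing cells, so these means are not separate from them. For the defining markers, transthyretin (Ttr) was detected on all arrays of both sets, at means of 12.85 in numbers 1 to 4 and 14.08 in 6 to 11. Albumin (Alb) was detected on 1 of 25 arrays of numbers 1 to 4 and 35 of 36 of numbers 6 to 11. Its probe was dim in numbers 6 to 11 too, at 5.87 (4.67 to 7.68), where the lowest detected level of the arrays was 4.47 to 4.83. The detection count of this probe thus says little of the level of albumin RNA. Xist was at 8.86 and 8.26 in gp130- preparations 2 and 3 and at most at 4.25 in every other preparation, so that sex was mixed in part with genotype. The targeted Il6st was lower in gp130- than in gp130flox cells by 0.96 ± 0.22 (log2, SE) averaged over times (limma, adjusted p = 0.00669).

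Plg, Plat and Serpinf2 carried the split between the sets of numbers, and neither genotype nor IL-6 moved them as far. The brightest Plg probe (ILMN_2933463) averaged 9.87 ± 0.25 (SD, n = 36 arrays) on the log2 scale in numbers 6 to 11 and 4.93 ± 0.37 (SD, n = 25 arrays) in numbers 1 to 4, a 30.6-fold difference, with ranges of 9.41 to 10.27 and 4.49 to 5.77. The other Plg probes averaged 8.32 and 7.22 in numbers 6 to 11 and were detected on only 17 and 3 of the 25 arrays of numbers 1 to 4, so no fold is given for them. There plasminogen lay near the lowest detected level of the arrays, 4.47 to 4.83. Plat went the other way, at 6.2 ± 0.52 (SD, n = 36 arrays) in numbers 6 to 11 and 9.58 ± 1.19 (SD, n = 25 arrays) in numbers 1 to 4, a 10.4-fold difference with no overlap between 5.06 to 7.3 and 7.78 to 10.91. For comparison, 7.87% of all tested probes parted the sets without overlap, 3.8% higher and 4.07% lower in numbers 6 to 11.

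Serpinf2 was 4.89-fold higher in numbers 6 to 11 by its brightest probe (ILMN_2769089), at 11.2 ± 0.47 (SD, n = 36 arrays) against 8.91 ± 0.77 (SD, n = 25 arrays), and the ranges of 10.29 to 12.03 and 8 to 11.03 overlapped. Plau (ILMN_2629582) averaged 6.14 and 5.46 and Plaur (ILMN_2590884) 9.05 and 8.85 in numbers 6 to 11 and 1 to 4, so the urokinase receptor differed least in the means over both genotypes. By genotype Plaur went opposite ways, at 9.02 and 9.26 in gp130flox and 9.09 and 8.58 in gp130- cells. In gp130- cells Plau differed less, at 5.71 and 5.37. In bulk RNA, fewer cells of a type and less RNA per cell cannot be told apart, and these set differences are given as a description with no test. The mean level of 8 Kupffer cell markers was 5.05 to 7.2 in numbers 1 to 4 and 7.07 to 7.97 in numbers 6 to 11, and that of 7 endothelial markers 4.33 to 5.01 and 5.37 to 6.26. That of 4 cholangiocyte markers was 6.64 to 7.58 and 5.5 to 6.21, and that of 6 stellate cell or fibroblast markers 5.58 to 6.89 and 5.59 to 6.03. Their part in the levels of the members was not tested.

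**Figure D1:**
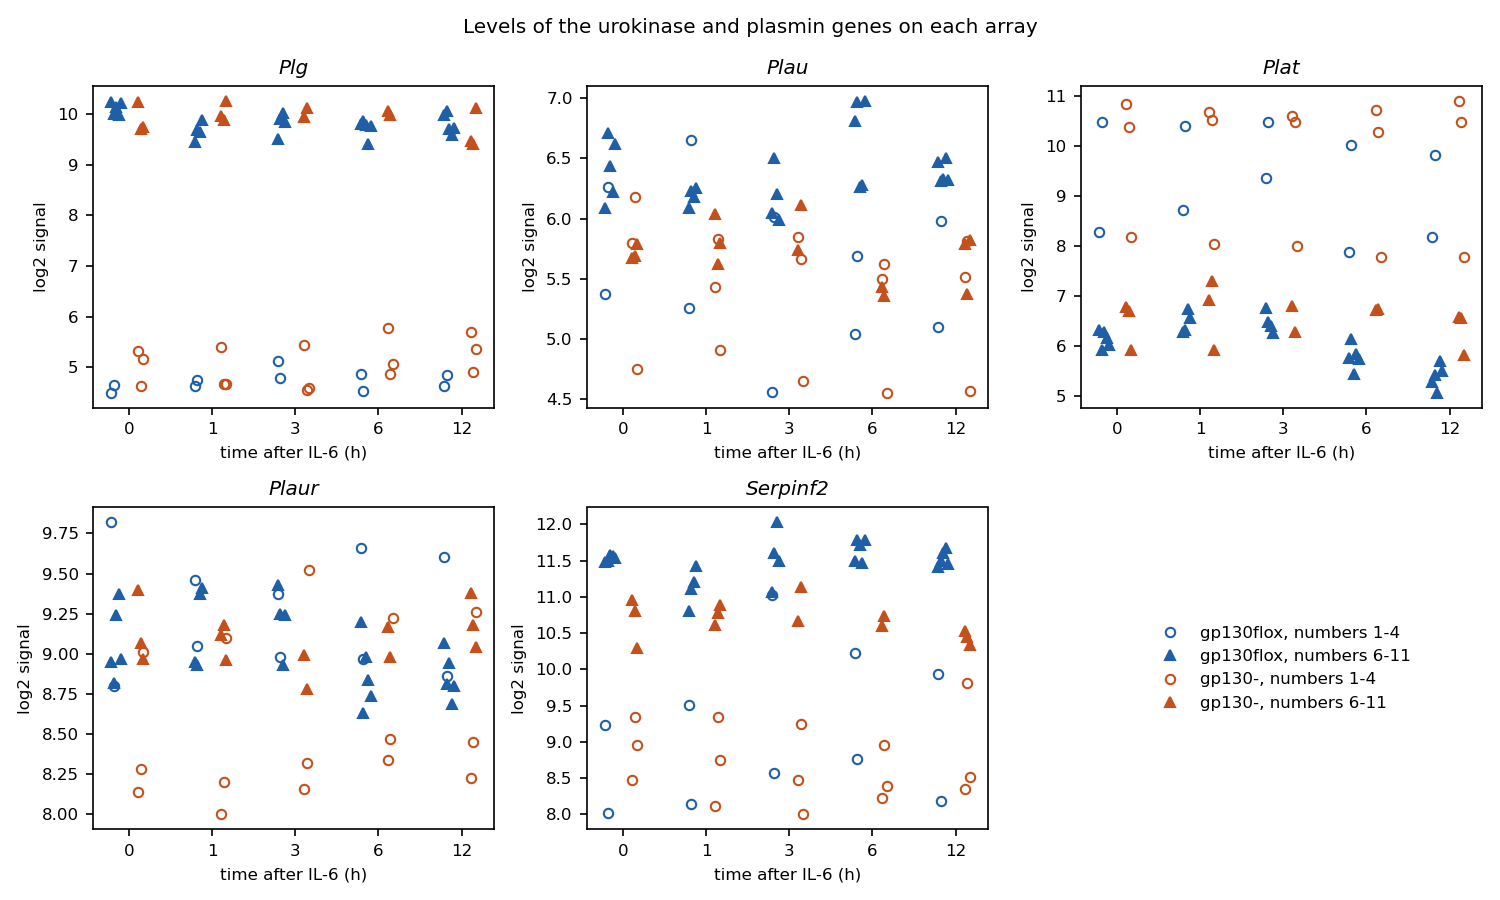
Log2 signal (vertical axis) of the brightest probe of Plg, Plau, Plat, Plaur and Serpinf2 on each of the 61 arrays, by hours after IL-6 (horizontal axis), with gp130flox in blue and gp130- in orange, and numbers 1 to 4 as open circles and 6 to 11 as filled triangles. Plg of numbers 6 to 11 lay at 9.41 or above and Plg of numbers 1 to 4 at 5.77 or below at every time, and Plat lay the other way round.

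The arrays of numbers 1 to 4 also differed among themselves. Preparations gp130flox 1 and gp130- 4 had Plat at 8.49 ± 0.58 and 7.96 ± 0.17 (SD over 5 arrays each), below the 10.25, 10.75 and 10.43 of gp130flox 2, gp130- 2 and gp130- 3. The same pair was lowest in Plau, at 5.07 and 4.69 against 6.12, 5.62 and 5.82, and highest in Plaur, at 9.58 and 9.22 against 8.93, 8.17 and 8.34. This grouping was noticed after the values were seen and crosses the genotypes. Serpinf2 did not follow it, with 9.99 in gp130flox 1 but 8.52 in gp130- 4.

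With all 61 arrays in 1 fit of 10 group means, 0 of 45 genotype values (9 probes at 5 times) passed the test, which asked for a limma adjusted p under 0.05 over all 19543 probes and a fold over 1.5, and 5 of them had an unadjusted p under 0.05. Over all probes 0.179%, 0.394%, 0.768%, 0.957% and 0.737% passed at 0, 1, 3, 6 and 12 h. The split between the sets widened the errors: Plg differed by -1.07 ± 1.42 (log2, gp130- minus gp130flox, SE) at 0 h with a 95% interval of -3.92 to 1.78, so a large difference in either direction was not detectable there. The genotypes also held unequal shares of the sets, which the estimates of all arrays carry. At 0 h, 3 of 6 gp130- and 2 of 7 gp130flox arrays were of numbers 1 to 4. The brightest Plg probe then averaged 5.03 in gp130- and 4.57 in gp130flox cells of numbers 1 to 4. In numbers 6 to 11 it averaged 9.9 and 10.12. Averaged over times, with arrays of a preparation treated as correlated, 0 of 9 probes passed with limma, 5 of them at an unadjusted p under 0.05 (1.54% of all probes passed), with Serpinf2 at -1.13 ± 0.35 (adjusted p = 0.0832), Plau at -0.61 ± 0.19 (adjusted p = 0.094) and Plat at 1.13 ± 0.48 (adjusted p = 0.369).

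Within numbers 6 to 11 the plasmin inhibitor Serpinf2 and the activator Plau were lower in gp130- cells, the activator Plat was higher at the late times, and Plaur and Plg did not pass the test. Of the 45 genotype values, 16 passed there, 14 lower and 2 higher in gp130- cells, where 2.88%, 4.5%, 6.39%, 8.12% and 6.81% of all probes passed at 0, 1, 3, 6 and 12 h. As lower, 1.51%, 1.87%, 2.94%, 3.87% and 3.65% of all probes passed. The 14 lower values were of the Serpinf2 probes and Plau, and the 2 higher values were of Plat. Probes of the same gene and times of the same preparations thus recur among the 16. Each gp130- group of this set held 2 or 3 arrays and each gp130flox group 4 or 5, and as the labels do not say that replicates are separate animals or cultures, p-values measure only the spread between these samples. Within numbers 1 to 4, 0 of 45 values passed (limma, 0 of 45 at an unadjusted p under 0.05; 0.164%, 0.246%, 2.01%, 0.558% and 0.471% of all probes passed at the 5 times). With the set of numbers as a term in the fit of all arrays, 3 of 45 passed, all lower in gp130- cells, where 0.901%, 1.86%, 3.83%, 4.25% and 3.03% of all probes passed. Averaged over times with this term, 2 of 9 passed (3.88% of all probes did). Whether the genotype difference itself differed between the sets was not tested. The split into these sets was chosen with results of these data known.

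Serpinf2 encodes the main plasma inhibitor of plasmin, and its 3 probes moved together. At 0 h the brightest probe read 11.48, 11.5, 11.57, 11.56 and 11.54 in the gp130flox preparations 7 to 11 and 10.96, 10.8 and 10.29 in the gp130- preparations 6, 7 and 9. At 12 h the values were 11.41, 11.5, 11.61, 11.68 and 11.45 in gp130flox and 10.53, 10.45 and 10.33 in gp130- cells. All gp130- arrays lay below all gp130flox arrays at both times, as they did for 5.31% and 7.45% of all probes.

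The log2 difference of Serpinf2 in numbers 6 to 11 was -0.85 ± 0.16 at 0 h, -0.38 ± 0.17 at 1 h, -0.65 ± 0.19 at 3 h, -0.98 ± 0.18 at 6 h and -1.09 ± 0.16 at 12 h (SE; limma adjusted p = 0.00109, 0.269, 0.0322, 0.000422 and 1.38e-05). It was thus past the threshold before IL-6 and at 3, 6 and 12 h, with 2.13-fold lower Serpinf2 at 12 h, and missed it at 1 h. The other 2 probes gave -0.82 and -0.71 at 0 h and -1.07 and -1.12 at 12 h, all past the threshold, although both lost the call at 0 h without gp130- preparation 9 (-0.58 and -0.51). They were less stable at 3 and 6 h. ILMN_3001827 gave -0.57 at 3 h, a fold of 1.49 that did not pass, and -0.78 at 6 h, kept in 7 of 8 fits that left out a preparation (adjusted p = 0.0613 without gp130- preparation 7). ILMN_3001824 gave -0.71 at 3 h and -0.59 at 6 h, both past the threshold, kept in 5 of 8 and 3 of 8 such fits (adjusted p up to 0.214 and 0.305). The call was lost at 3 and 6 h without gp130flox preparation 8 or 9 or gp130- preparation 6, and at 6 h also without gp130flox preparation 11 or gp130- preparation 7. At 3 h, the fits without gp130flox preparation 8, 9 or 10 or gp130- preparation 6 or 7 lost the call of the brightest probe (adjusted p up to 0.27), and 0 of the 8 fits that left out a preparation in turn lost it at 0, 6 or 12 h. At 3 and 6 h the gp130- group held 2 arrays, so 2 of these 8 fits rest on 1 gp130- array, which is assumed to vary like the other groups. With the set of numbers as a term it passed at 6 h (-0.98 ± 0.30, adjusted p = 0.0385). In numbers 1 to 4 the differences of the brightest Serpinf2 probe at the 5 times were 0.30, -0.09, -1.22, -0.97 and -0.17, with SEs of 0.72, and 0 passed.

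Plau, the urokinase gene, was the second member that was lower in gp130- cells of numbers 6 to 11. At 6 h its log2 levels were 6.81, 6.97, 6.26, 6.28 and 6.98 in gp130flox and 5.43 and 5.36 in gp130- cells, with no overlap, as for 11.4% of all probes. The Plau difference was -0.70, -0.37, -0.26, -1.26 and -0.72 at 0, 1, 3, 6 and 12 h, with SEs of 0.16 to 0.19 (limma adjusted p = 0.00983, 0.3, 0.514, 1.81e-05 and 0.00354), so urokinase was 2.4-fold lower at 6 h. The step from 3 to 6 h compares different gp130- preparations, 6 and 9 at 3 h and 6 and 7 at 6 h. Of the gp130- preparations in this set, 9 was highest in Plau and 7 lowest (means of 5.88 and 5.51). Leaving out each preparation in turn kept the call at 6 h in 8 of 8 fits (2 of which had 1 gp130- array at that time), at 12 h in 7 (adjusted p = 0.0744 without gp130- preparation 7) and at 0 h in 6 (adjusted p = 0.0612 and 0.0549 without gp130- preparation 6 or 7). At 6 h the difference also passed with the set of numbers as a term (-0.82 ± 0.26, adjusted p = 0.0396).

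Plat, tissue plasminogen activator, was higher in gp130- cells of numbers 6 to 11 at 6 and 12 h. Its log2 levels at 12 h were 5.28, 5.41, 5.06, 5.69 and 5.5 in gp130flox and 6.59, 6.57 and 5.81 in gp130- cells, and the groups did not overlap, as for 6.7% of all probes. The Plat difference was 0.33 ± 0.23, 0.24 ± 0.24 and 0.06 ± 0.28 at 0, 1 and 3 h, then 0.96 ± 0.27 at 6 h (limma adjusted p = 0.0194) and 0.94 ± 0.23 at 12 h (adjusted p = 0.0086). The gp130- arrays were of preparations 6 and 9 at 3 h and of 6 and 7 at 6 h, so these times compare different preparations. The gp130- preparations were not alike in Plat: preparation 9 averaged 5.98, inside the 5.95 to 6.07 of the 5 gp130flox preparations, and preparations 6 and 7 averaged 6.76 and 6.83. The fits without gp130- preparation 6 or 7 lost the Plat call at both times (adjusted p = 0.118 and 0.135 at 6 h, 0.0864 and 0.0603 at 12 h), as did those without gp130flox preparation 9 or 11 at 6 h (adjusted p = 0.0504 and 0.0522).

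Plaur, the urokinase receptor, stayed between 8.63 and 9.43 on the arrays of numbers 6 to 11, and its genotype difference there lay between -0.33 and 0.34 over the 5 times. Plg showed differences of -0.23, 0.37, 0.21, 0.3 and -0.15 by its brightest probe, with SEs of 0.16 to 0.19, the largest at 1 h with a 95% interval of 0.04 to 0.71 (adjusted p = 0.266). Of the 10 values of Plaur and the brightest Plg probe, 0 passed in numbers 6 to 11.

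**Figure D2:**
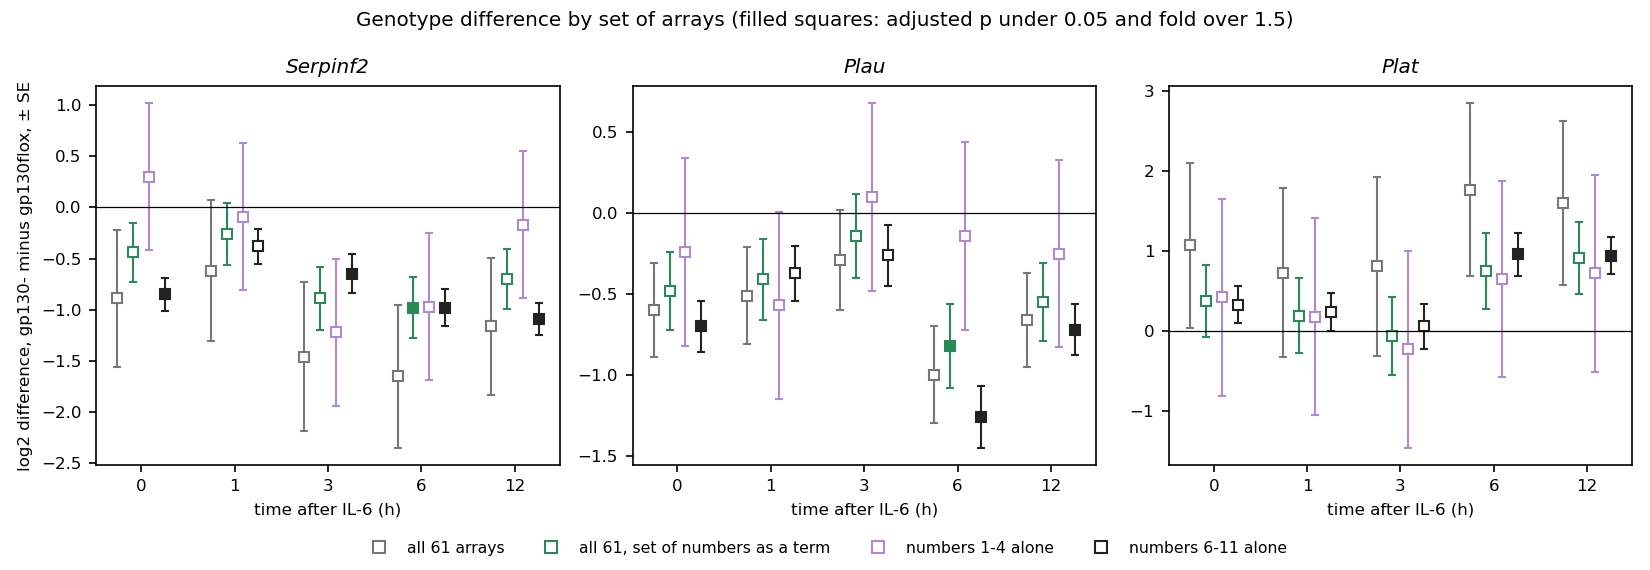
Log2 difference between genotypes (vertical axis, gp130- minus gp130flox) with its limma standard error for Serpinf2, Plau and Plat (brightest probes) by hours after IL-6 (horizontal axis) in 4 fits. Filled squares passed the test: Serpinf2 at 0, 3, 6 and 12 h, Plau at 0, 6 and 12 h and Plat at 6 and 12 h in numbers 6 to 11 alone, and Serpinf2 and Plau at 6 h with the set of numbers as a term.

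Arrays of 1 preparation are not independent, so the mean of each preparation over its times was also compared between the 3 gp130- and 5 gp130flox preparations of numbers 6 to 11. The gp130- preparations 7 and 9 and gp130flox preparations 10 and 11 lack 1 time each, so the means cover different times. Serpinf2 averaged 10.67 ± 0.02 (SD, n = 3) and 11.5 ± 0.14 (SD, n = 5), with 10.66 to 10.69 against 11.25 to 11.63 (two-sided exact permutation test, p = 0.0179, the smallest that 56 splits allow). These SDs are between preparation means. Single arrays varied more, from 10.29 to 11.14 in gp130- preparation 9. The other 2 Serpinf2 probes also parted the genotypes, by -0.77 and -0.7 (exact p = 0.0179 each). Plau averaged 5.71 ± 0.19 (SD, n = 3) and 6.38 ± 0.15 (SD, n = 5), with 5.51 to 5.88 against 6.25 to 6.54 (exact p = 0.0179). Plat overlapped, at 6.52 ± 0.47 and 6.01 ± 0.05 (exact p = 0.0893), as did Plaur (exact p = 0.464) and Plg (exact p = 0.375 for the brightest probe). These are 9 tests, and the preparation means of 20.3% of all probes did not overlap, 10.2% lower and 10.1% higher in gp130- cells.

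Averaged over times with the preparation as a correlated block, 4 of 9 probes passed in numbers 6 to 11 (6.92% of all probes did): Serpinf2 at -0.79 ± 0.09, -0.74 ± 0.09 and -0.67 ± 0.1, and Plau at -0.66 ± 0.09, each kept in 8 of 8 fits that left out a preparation. Plat was at 0.49 ± 0.13 (adjusted p = 0.00506), a fold of 1.41, under the fold asked for. Among cell type markers in the same comparison, 4 of 9 hepatocyte markers were higher and 0 lower in gp130- cells, 1 of 4 cholangiocyte markers was lower, and 0 of 8 Kupffer cell, 0 of 7 endothelial, 0 of 6 stellate cell or fibroblast and 0 of 4 dividing cell markers passed. The mean level of the hepatocyte list was 10.04 to 10.76 on gp130flox and 10.67 to 11.24 on gp130- arrays of numbers 6 to 11, that of the Kupffer cell list 7.45 to 7.97 and 7.07 to 7.77, and that of the cholangiocyte list 5.71 to 6.21 and 5.5 to 5.95. Their part in the differences of Serpinf2, Plau and Plat was not tested.

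**Figure D3:**
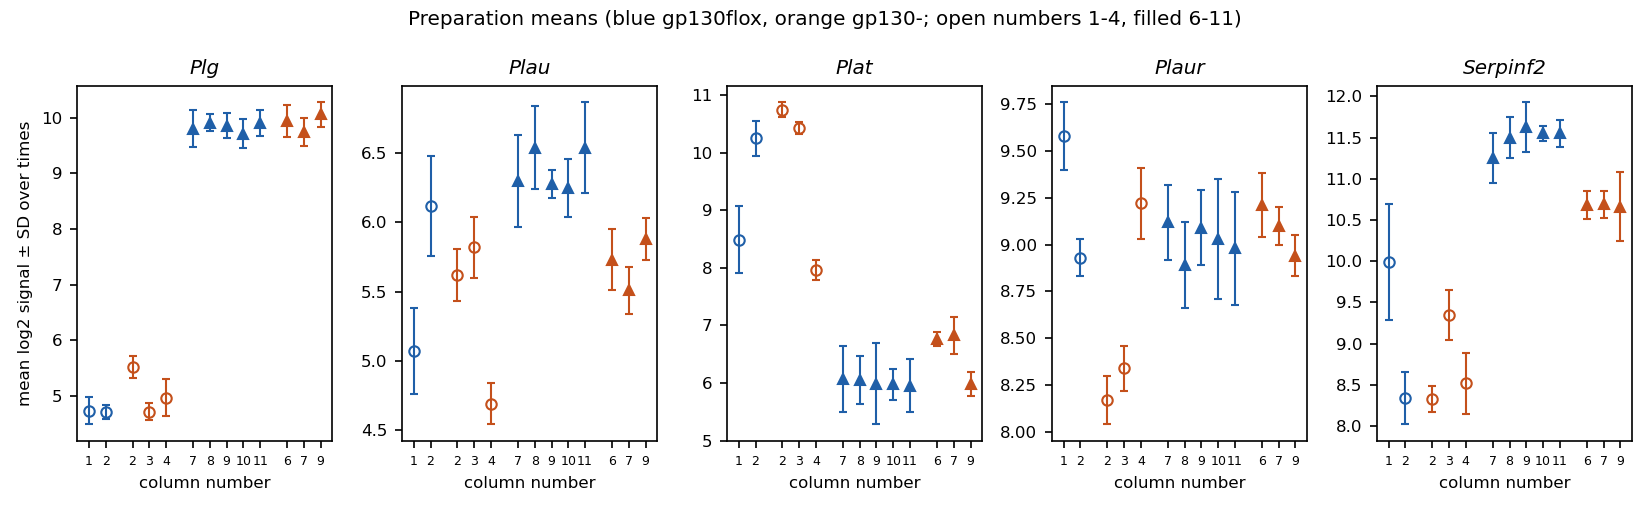
Mean log2 signal of each preparation with its SD over the 4 or 5 times measured (vertical axis) for the 5 members, ordered by set, genotype and column number (horizontal axis), gp130flox in blue and gp130- in orange. In numbers 6 to 11 the gp130- means of Serpinf2 (10.66 to 10.69) and Plau (5.51 to 5.88) lay below all gp130flox means, and those of Plaur and Plg overlapped.

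After IL-6, in the fit of all arrays, 0 of 36 values (9 probes at 4 times) passed against 0 h in gp130flox cells, 0 of 36 in gp130- cells and 0 of 36 for the difference of these changes (limma, with 0, 0 and 0 at an unadjusted p under 0.05). Of all probes, 0.0154%, 0.0614%, 0.0256% and 0.0358% passed at 1, 3, 6 and 12 h in gp130flox cells, and 0% passed in gp130- cells and for the difference. Socs3, a STAT3 target, was among those that passed in gp130flox cells at each of these times. At 1 h it rose by 3.24 ± 0.41 (log2, SE; limma adjusted p = 2.76e-06). That fit leaves the differences between preparations in its error, so its counts of 0 do not show an absence of change. With each preparation as a fixed block, which compares each array with its own preparation, 1 of 36 passed in gp130flox cells, and this was Plat at 12 h (0.2%, 0.542%, 0.594% and 0.711% of all probes passed at the 4 times, and 0.246% as lower at 12 h). With this block 0 of 36 passed in gp130- cells and 0 of 36 for the difference. In limma, 13 of 36 values in gp130flox cells, 1 of 36 in gp130- cells and 8 of 36 for the difference had an unadjusted p under 0.05.

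Plat fell in gp130flox cells by 12 h when each preparation was compared with itself, and without the block the same change of -0.64 had an SE of 0.99 (adjusted p = 1). From its own 0 h array it changed by -0.09, -0.65, -1.03, -0.5, -1.22, -0.46 and -0.52 in preparations 1, 2, 7, 8, 9, 10 and 11, lower in 7 of 7, as were 2.06% of all probes. The blocked change of Plat at 12 h was -0.64 ± 0.12 (log2, SE; adjusted p = 0.000705), a fold of 1.56, and -0.75 ± 0.14 in numbers 6 to 11 alone (adjusted p = 0.00381, where 1.15% of all probes passed). Before that, Plat was 0.29 ± 0.12 and 0.41 ± 0.12 above 0 h at 1 and 3 h (adjusted p = 0.573 and 0.0948) and -0.38 ± 0.12 at 6 h (adjusted p = 0.1). In gp130- cells the change at 12 h was -0.11 ± 0.13, with 4 of 6 preparations lower, and the difference between the genotypes in this change was 0.53 ± 0.17 (unadjusted p = 0.00372, adjusted p = 0.319), which missed the threshold.

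Serpinf2 changed in both directions from its own 0 h level. The gp130flox preparation 1 read 9.23, 9.51, 11.03, 10.22 and 9.94 at 0, 1, 3, 6 and 12 h, and preparation 2 read 8.02, 8.15, 8.57, 8.77 and 8.19. The gp130flox preparations of numbers 6 to 11 changed by -0.41 to 0.46 at 3 h and -0.09 to 0.29 at 6 h, from levels of 11.48 to 11.57. In gp130- cells Serpinf2 changed by -0.35 to 0.6 at 1 h, -0.96 (preparation 4) to 0.85 (preparation 9) at 3 h and -0.44 to 0.45 at 12 h. At 6 h it was below its own 0 h level in the 5 of 5 preparations measured then, by -0.06 to -0.57, as were 4.64% of all probes, and preparation 9 has no 6 h array. The blocked change of Serpinf2 was 0.40 ± 0.16 at 3 h and 0.34 ± 0.15 at 6 h in gp130flox cells and the difference from gp130- cells was -0.50 ± 0.23 and -0.57 ± 0.23 (adjusted p = 0.256, 0.323, 0.541 and 0.374), none past the threshold.

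**Figure D4:**
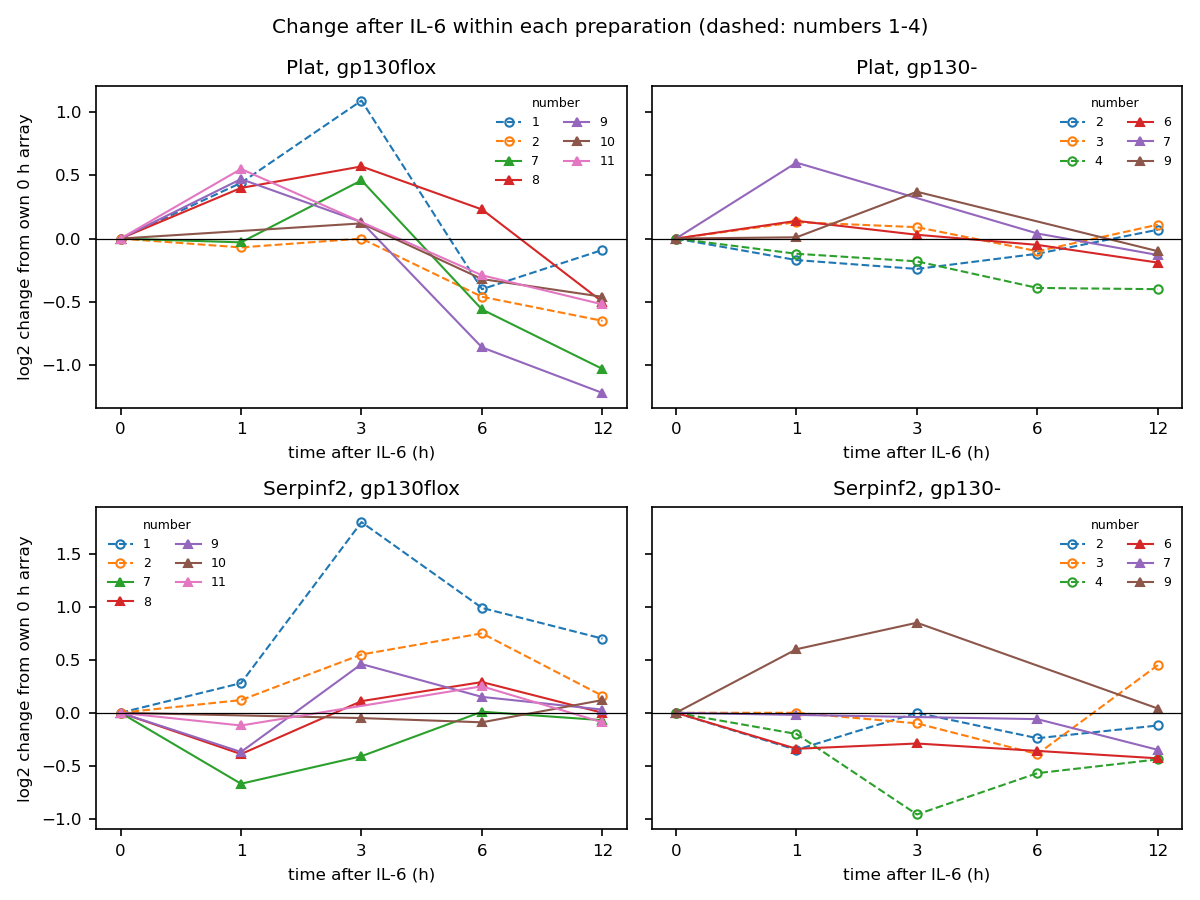
Log2 change from the 0 h array of the same preparation (vertical axis) by hours after IL-6 (horizontal axis) for Plat and Serpinf2 in gp130flox and gp130- cells, a line for each preparation, dashed for numbers 1 to 4; lines pass over times without an array. Plat ended below 0 in 7 of 7 gp130flox preparations at 12 h, and Serpinf2 lay farthest above 0 in gp130flox preparation 1, at 1.8 at 3 h (not past the threshold over all preparations).

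Genes with the most similar profile were sought for each member. Over all 61 arrays the genes most like Plg were Cyp2e1, Itih1 and Cyp2a12 (Pearson r of 0.99 or above), those most like Serpinf2 were Serpind1, Nat8f4 and Cyp51 (r = 0.94, 0.93 and 0.93), and those most like Plat were Ltbp3, Timp2 and Prss35 (r = 0.95 each). Plau was nearest to Lor, Kcnk6 and Gja1 (r = 0.88, 0.85 and 0.84) and Plaur to Hspbap1, Mthfd2 and Eif2s3y (r = 0.82, 0.81 and 0.8). Plaur was lowest in gp130- preparations 2 and 3 (means of 8.17 and 8.34), those with high Xist, and the part of sex in its profile was not tested. Over the 36 arrays of numbers 6 to 11 the nearest genes were others, except for Hspbap1 beside Plaur (r = 0.68). They were Olfml2b, Sh3pxd2b and Tgm2 for Serpinf2 (r = 0.9 each) and Gpr137b-ps, Masp1 and Litaf for Plau (r = 0.85, 0.85 and 0.84). They were Nrn1, Cxcl10 and Frk for Plat (r = 0.86, 0.81 and 0.81), Cyp2d22, P4ha2 and Vtn for Plg (r = 0.77, 0.77 and 0.76), and Klhl10 and Lrrfip2 for Plaur (r = 0.63 and 0.62). Among the members, Plau and Serpinf2 had r = 0.79 in numbers 6 to 11 and r = -0.29 in numbers 1 to 4, and Plat and Plg had r = -0.87 over all arrays but 0.01 in numbers 6 to 11. Arrays share preparations and normalization, so these correlations are a description.

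Other genes of plasminogen activation and its neighbours were read from a list of 30, of which 24 were tested by their brightest probe. Named after their values were seen, 7 of the 24 parted the sets with no overlap, all higher in numbers 6 to 11 as Plg was and as 3.8% of all probes were. These were vitronectin (Vtn), by 4.01 on the log2 scale, coagulation factor XII (F12), by 2.88, histidine-rich glycoprotein (Hrg), by 2.72, prothrombin (F2), by 2.67, protein C (Proc), by 2.41, prekallikrein (Klkb1), by 1.83, and kininogen (Kng1), by 1.72, all plasma proteins made by the liver.

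Between genotypes, 1 of the 24 was lower in gp130- cells at 3, 6 and 12 h in the fit of all arrays and 0 were higher, where 0.768%, 0.957% and 0.737% of all probes passed. This was fibrinogen alpha (Fga), the substrate of plasmin, at -3.61, -3.61 and -3.2 on the log2 scale (limma adjusted p = 0.00713, 0.00411 and 0.0102). Fga was higher by 2.65 in numbers 6 to 11 than in 1 to 4, so these values also carry the unequal shares of the sets. In numbers 6 to 11 averaged over times, 2 of 24 were lower and 2 higher, where 6.92% of all probes passed in either direction. Fga was at -2.1 ± 0.11 and Fgg, fibrinogen gamma, at -1.02 ± 0.1 (adjusted p = 4.44e-16 and 3.6e-09). Klkb1, plasma prekallikrein, was at 0.84 ± 0.09 and S100a10, a partner of annexin A2 at the cell surface, at 0.61 ± 0.17 (adjusted p = 1.96e-08 and 0.0112). Serping1, the C1 inhibitor, which inhibits kallikrein, was lower by -1.33 ± 0.28 averaged over times in the fit of all arrays (adjusted p = 0.0024) and by -0.7 ± 0.18 at 12 h in numbers 6 to 11 (adjusted p = 0.0131). It was higher by 1.97 in numbers 6 to 11 than in 1 to 4, so the value of all arrays also carries the unequal shares. Averaged over times in numbers 6 to 11, Serping1 did not pass. The median of the 24 was -0.01 against 0 for all genes in numbers 6 to 11 averaged over times, and -0.22 to 0 against 0.01 at the 5 times in the fit of all arrays.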

How the data were processed

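The deposited table holds, for each of 61 Illumina MouseWG-6 v2 arrays, the non-normalized signal intensity of each probe and its detection p-value, as the authors exported them from GenomeStudio 1.6.0. A second deposited table holds the authors' cubic spline normalized intensity and served as an alternative. Signals were background-corrected with neqc (offset 16, with the negative controls taken from detection p-values), quantile-normalized and put on the log2 scale, in which quantile scaling gives all arrays 1 distribution. Probes of 1 gene detected (p under 0.05) on at least 5 arrays were fitted in limma 3.58.1 (R 4.3.3) with 10 group means and Benjamini-Hochberg adjustment, and passed where the adjusted p was under 0.05 and the fold over 1.5. The genotype difference averaged over times used duplicateCorrelation on the preparation (correlation 0.6). The number of arrays limits the precision; each array detected 15257 to 19256 probes. Same-numbered arrays of a genotype deviated from their group means together (median r = 0.86 over 114 pairs, lowest 0.28). These correlations include the split between the sets of numbers. With the set means removed, the median was 0.37 and the lowest -0.37. The fits were tested on simulated data in which arrays varied independently, with no preparations or sets. That test therefore cannot show how the fits deal with either. Named genes were the members, genes of the list that were called or parted the sets, and the 3 genes most like each member. Il6st, Socs3, Cyp2e1, Anln, Xist and some cell type markers were named as well. Members and lists were chosen with earlier results of these data known.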

Additional observations from a re-analysis of the deposited data

Results flagged for a closer look

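Of 90 groups (9 probes in 10 groups of 5 to 7 arrays), 9 held an array that stood far from the rest by Dixon's test at 95%, where chance gives about 1 in 20, and the 6 arrays concerned were all of numbers 1 to 4, some of them for more than 1 probe. For Plau, gp130flox number 1 was low at 3 h (4.56, the nearest array at 5.99) and 12 h (5.1, nearest 5.98), and gp130- number 4 was low at 0 h (4.75, nearest 5.67), 6 h (4.55, nearest 5.36) and 12 h (4.57, nearest 5.37). For Plaur, gp130flox number 1 was high at 12 h (9.6, nearest 9.07). For Serpinf2, gp130flox number 2 was low at 3 h by all 3 probes (8.57, 6.68 and 6.66, nearest 11.03, 9.41 and 8.79).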

How the results depend on the processing

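Of the 45 genotype values of the members, 0 passed in the fit of all arrays, 28 with array weights, 1 with the replicate block as a random effect, 3 with the set of numbers as a term (6 with the replicate block added), and 16 in numbers 6 to 11 alone, 17 there with the replicate block or when these arrays were normalized by themselves. Leaving out single arrays or, within numbers 6 to 11, single preparations gave 0 to 17: with each of the 61 arrays left out it was 0, or 1 (Plau at 6 h) without gp130flox number 1 at 6 h, and with each preparation left out within numbers 6 to 11 it was 9 to 17. Averaged over times, 0 of 9 passed, and 2 with no detection filter, 8 with array weights, 4 with no replicate block, 2 with the set term, 4 in numbers 6 to 11 alone (also when normalized by themselves), 1 without gp130- preparations 2 and 3, and 0 to 5 when an array or preparation was left out. After IL-6 in gp130flox cells 0 of 36 passed, and 1 with the replicate block as a fixed effect and in numbers 6 to 11 with the replicate block, random or fixed. At 0 h the 3 Serpinf2 probes reversed in numbers 1 to 4 alone (0.30, 0.26 and 0.15). The Plg difference between the sets of 4.93 became 3.9 with an offset of 50 and 3.78 with quantile normalization and no background correction. Counts after IL-6 in gp130- cells and for the difference of changes stayed at 0 under each alternative run. The causes were not tested. The spline table was not run for the averaged comparison or the sets, nor only the groups compared for the averaged comparison, and a fixed block cannot be fitted to genotype differences, since each preparation has 1 genotype. Fits of numbers 6 to 11 with a replicate block or their own normalization, those without a preparation, and the set term with a replicate block were chosen after seeing the data. The split into numbers 1 to 4 and 6 to 11 was itself chosen with results of these data known. With 3 gp130- preparations in numbers 6 to 11, precision is limited, and Plg in numbers 1 to 4 lay near background.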
